A study of Mus musculus with 4 samples.

Results

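The dystrophin-associated complex and dysferlin are represented here by 8 genes, Dmd, Utrn, Dag1, Sgca, Sgcb, Sgcd, Sntb1 and Dysf, and by the open chromatin listed around them in mouse myoblasts. The genes were chosen by name. For each gene, every peak of the WT and of the Tet2 KO list was taken from 50000 bp upstream of its start to 50000 bp past its end (mm9, GENCODE release M1). This gave 46 of the 25775 WT peaks and 6 of the 3836 Tet2 KO peaks.

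ATAC-seq maps accessible DNA with the transposase Tn5, which inserts sequencing adapters into open chromatin, and a peak is a stretch where fragments pile up above the local background. Satellite cells, the stem cells of skeletal muscle, were sorted from the hindlimbs of C57BL/6 mice (male, 8 to 10 weeks old unless the methods state otherwise) as PI-, CD45-, CD11b-, CD31-, Sca1-, CD34+ and Integrin a7+ cells, and cultured for 3 days to MyoD+ primary myoblasts, of which 5000 entered each library. WT mice were compared with Tet2 KO mice, which lack exon 3 of Tet2, an enzyme that oxidises methylated cytosine, in all their cells and not in muscle alone. There were 2 samples of each genotype, but 1 peak list of each, carrying a single library name that could not be tied to a replicate. The genotypes were therefore compared without a test, and intervals cover counting error only.

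In muscle fibres, dystrophin links the actin cytoskeleton to dystroglycan in the plasma membrane, which in turn binds laminin of the basement membrane. The sarcoglycans stabilise this link and the syntrophins attach signalling proteins to it, while utrophin is a paralogue of dystrophin that takes its place at the neuromuscular junction and in immature muscle. Dysferlin, which is not a part of the complex, acts in the resealing of torn membrane. Loss of dystrophin, of alpha-, beta- or delta-sarcoglycan or of dysferlin causes muscular dystrophy.

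The WT list held peaks at 5 of the 8 genes, 16 at Utrn, 9 at Sntb1, 8 at Dag1, 7 at Dysf and 6 at Sgca. The Tet2 KO list held 4 peaks at Utrn, 1 at Dag1 and 1 at Sntb1, and each of these 6 overlapped a WT peak. No peak of either list lay at Dmd, Sgcb or Sgcd. Over all 22350 protein-coding genes of the autosomes and X, 74.3% had a WT peak in a window of the same kind and 31.4% had a Tet2 KO peak, so the 5 of 8 and 3 of 8 found here lay near the background.

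**Figure D1:**
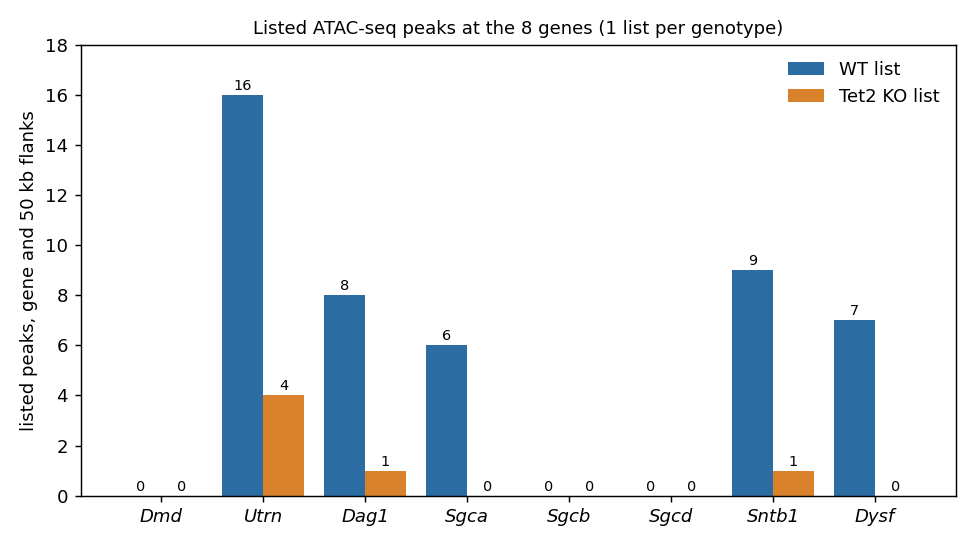
Number of listed ATAC-seq peaks (y axis) in each gene and 50000 bp on either side of it (x axis), from 1 WT list (blue) and 1 Tet2 KO list (orange). Utrn had 16 WT and 4 Tet2 KO peaks, Dag1 8 and 1, Sgca 6 and 0, Sntb1 9 and 1, Dysf 7 and 0, and the other genes had 0 in both.

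The sequences under the 6 peaks listed in both genotypes are shown because they are all the open stretches that the Tet2 KO list holds at these genes. Each is the Tet2 KO peak, or in 1 case a part of it, on the minus strand of mm9, on which Utrn, Dag1 and Sntb1 are transcribed. The Utrn stretches were chr10:12414654-12414909 in intron 24, chr10:12507868-12508138 and chr10:12541057-12541356 in intron 1 and chr10:12631994-12632116 upstream of the gene. The stretch chr10:12541057-12541356 is only the last 300 bases, by coordinate, of the 367 bp peak chr10:12540990-12541356. The Dag1 peak was chr9:108103481-108103755, past the end of the gene, and the Sntb1 peak chr15:55754972-55755130, upstream of it. Capitals mark the E box CAGCTG, bound by MyoD, the AP-1 motif TGANTCA, the TEAD motif GGAATG and the Runx motif TGTGGT, searched on both strands, so that CATTCC and ACCACA are matches on the other strand. No annotated exon or UTR overlaps them.
Utrn intron 24: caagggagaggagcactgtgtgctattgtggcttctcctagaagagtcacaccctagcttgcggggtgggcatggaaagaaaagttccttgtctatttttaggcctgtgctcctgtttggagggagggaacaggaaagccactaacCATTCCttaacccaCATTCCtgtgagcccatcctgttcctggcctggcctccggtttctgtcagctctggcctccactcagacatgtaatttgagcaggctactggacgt
Utrn intron 1, distal: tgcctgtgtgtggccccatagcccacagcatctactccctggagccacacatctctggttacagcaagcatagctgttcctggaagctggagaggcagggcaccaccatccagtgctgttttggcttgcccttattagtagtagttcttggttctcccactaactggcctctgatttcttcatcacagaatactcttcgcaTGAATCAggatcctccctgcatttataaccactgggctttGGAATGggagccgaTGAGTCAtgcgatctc
Utrn intron 1, proximal: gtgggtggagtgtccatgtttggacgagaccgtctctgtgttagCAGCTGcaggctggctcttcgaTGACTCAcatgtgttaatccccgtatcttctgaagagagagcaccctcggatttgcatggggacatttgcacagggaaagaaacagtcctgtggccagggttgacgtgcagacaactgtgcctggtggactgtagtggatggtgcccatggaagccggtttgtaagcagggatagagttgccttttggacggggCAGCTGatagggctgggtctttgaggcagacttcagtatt
Utrn upstream: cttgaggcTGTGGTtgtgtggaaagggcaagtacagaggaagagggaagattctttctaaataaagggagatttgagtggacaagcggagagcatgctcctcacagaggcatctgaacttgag
Dag1 downstream: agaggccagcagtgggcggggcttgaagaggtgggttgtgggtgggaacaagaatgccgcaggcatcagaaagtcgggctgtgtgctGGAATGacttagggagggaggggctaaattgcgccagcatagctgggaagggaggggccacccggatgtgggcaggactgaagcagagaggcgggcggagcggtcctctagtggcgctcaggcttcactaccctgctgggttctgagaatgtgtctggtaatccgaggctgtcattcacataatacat
Sntb1 upstream: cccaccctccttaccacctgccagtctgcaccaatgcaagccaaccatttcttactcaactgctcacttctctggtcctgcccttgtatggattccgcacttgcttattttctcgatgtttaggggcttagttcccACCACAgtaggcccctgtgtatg

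The distal Utrn intron 1 sequence held 2 AP-1 matches and 1 TEAD match, the proximal one 2 E boxes and 1 AP-1 match, and the intron 24 sequence 2 TEAD matches. The Dag1 sequence held 1 TEAD match and 10 CpG dinucleotides at a GC content of 58.9%. The Utrn upstream and Sntb1 sequences held 1 Runx match each. No sequence shown here but the proximal Utrn intron 1 one held an E box. The wider WT peaks at the Utrn upstream and Sntb1 sites held 1 E box each, outside the stretches shown. A match describes the letters and does not show that a factor was bound.

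Dystrophin and utrophin, the large cytoskeletal proteins of the complex, lay at opposite ends of the peak counts. Dmd (chrX:80194209-82451480, plus strand) is 2257 kb long, with 14 annotated starts, and its window of 2.36 Mb held 0 WT and 0 Tet2 KO peaks. The nearest WT peaks lay 83943 bp and 317606 bp outside the window. Peak numbers run along the genome, and between these flanking WT peaks 1 number is skipped. In the library of that list at most 1 further WT peak was therefore called there without being listed. Between the Tet2 KO peaks on either side 3 numbers are skipped. Long genes without a peak were not rare, as 15 of 52 coding genes over 1 Mb had no WT peak in their window (median 3, highest 149). On the X chromosome the WT list had 2.55 peaks per Mb against 9.77 per Mb over the autosomes and X, and 518 of 932 X-linked coding genes (55.6%) had no WT peak in their window. Male cells carry a single X chromosome, and what part this has in the count at Dmd was not tested.

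Utrn (chr10:12101986-12589163, minus strand) is 487 kb long and had 27.2 WT peaks per Mb of window, more than 69.6% of coding genes. Of its 16 WT peaks 11 lay inside the gene and 5 in the flanks, with fold enrichments, the ratio of summit fragments plus 1 to background plus 1, from 5.93 to 15.8 (median 8.87). The 3 strongest WT peaks of all 46 were in its introns and all 3 had a Tet2 KO peak. Intron and exon numbers are those of the longest coding transcript of each gene, which has 74 exons in Utrn.

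The strongest, chr10:12507788-12508200 in intron 1, lay 81169 bp from the outermost start, with a fold enrichment of 15.8 in WT and 8.67 in Tet2 KO. Its summit held 40 fragments in WT (exact Poisson 95% interval 28.6 to 54.5) over a local background of 1.59, and 22 fragments in Tet2 KO (13.8 to 33.3) over 1.65. The libraries differ in coverage, so fragment numbers are set against each other only after division by the genome-wide background of each library, 0.649 fragments per position in WT and 1.38 in Tet2 KO. On that scale the summit stood at 61.7 times the background in WT (44.0 to 84.0) and 15.9 times in Tet2 KO (9.96 to 24.1). The peak in intron 24, chr10:12414530-12414945, 174426 bp from the start, had a fold of 13.8 in WT and 6.52 in Tet2 KO. Its 38 WT fragments (26.9 to 52.2) were 58.6 times the background, and its 15 Tet2 KO fragments (8.40 to 24.7) 10.8 times. The proximal intron 1 peak, chr10:12540964-12541432, 47965 bp from the start, had a fold of 13.6 in WT, with 42 fragments (30.3 to 56.8), and 8.73 in Tet2 KO, with 23 fragments (14.6 to 34.5). Between the intron 1 pair lay chr10:12530724-12530979, a WT peak with a fold of 8.92 and 18 fragments. The Tet2 KO peaks on either side of it carry consecutive numbers. In the library of that list no Tet2 KO peak was therefore called there. It is the single WT peak at the 8 genes of which this can be said outright.

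The remaining shared peak, chr10:12631834-12632267, lay at -42887 bp from the Utrn start, with a fold of 9.58 and 22 fragments (13.8 to 33.3) in WT and 4.61 and 10 fragments (4.80 to 18.4) in Tet2 KO. This Tet2 KO peak was the weakest of the 6, with a -log10 q of 2.92 against 13.4 for the strongest. None of the WT peaks had its centre in a promoter of Utrn, which here reaches from 1000 bp before an annotated start to 100 bp after it. A pair of WT peaks had centres close to it. The peak chr10:12588932-12589088 in the 5′ UTR exon was centred 153 bp past the start (fold 5.93, 15 fragments, GC content 73.9%), and its edge reached into the promoter. The other, chr10:12587950-12588247, was centred 1065 bp past the start (fold 8.36, 22 fragments, 68.8%). A peak at chr10:12581272-12581414 lay 190 bp past another annotated start (fold 5.94). With promoters of 1000 bp on either side of a start, Utrn would count among the genes with a WT promoter peak. None of these start-side peaks had a Tet2 KO peak, and neither did the strongest peak just upstream, chr10:12598452-12598807 at -9466 bp (fold 11.6, 26 fragments), which held 3 AP-1 matches.

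**Figure D2:**
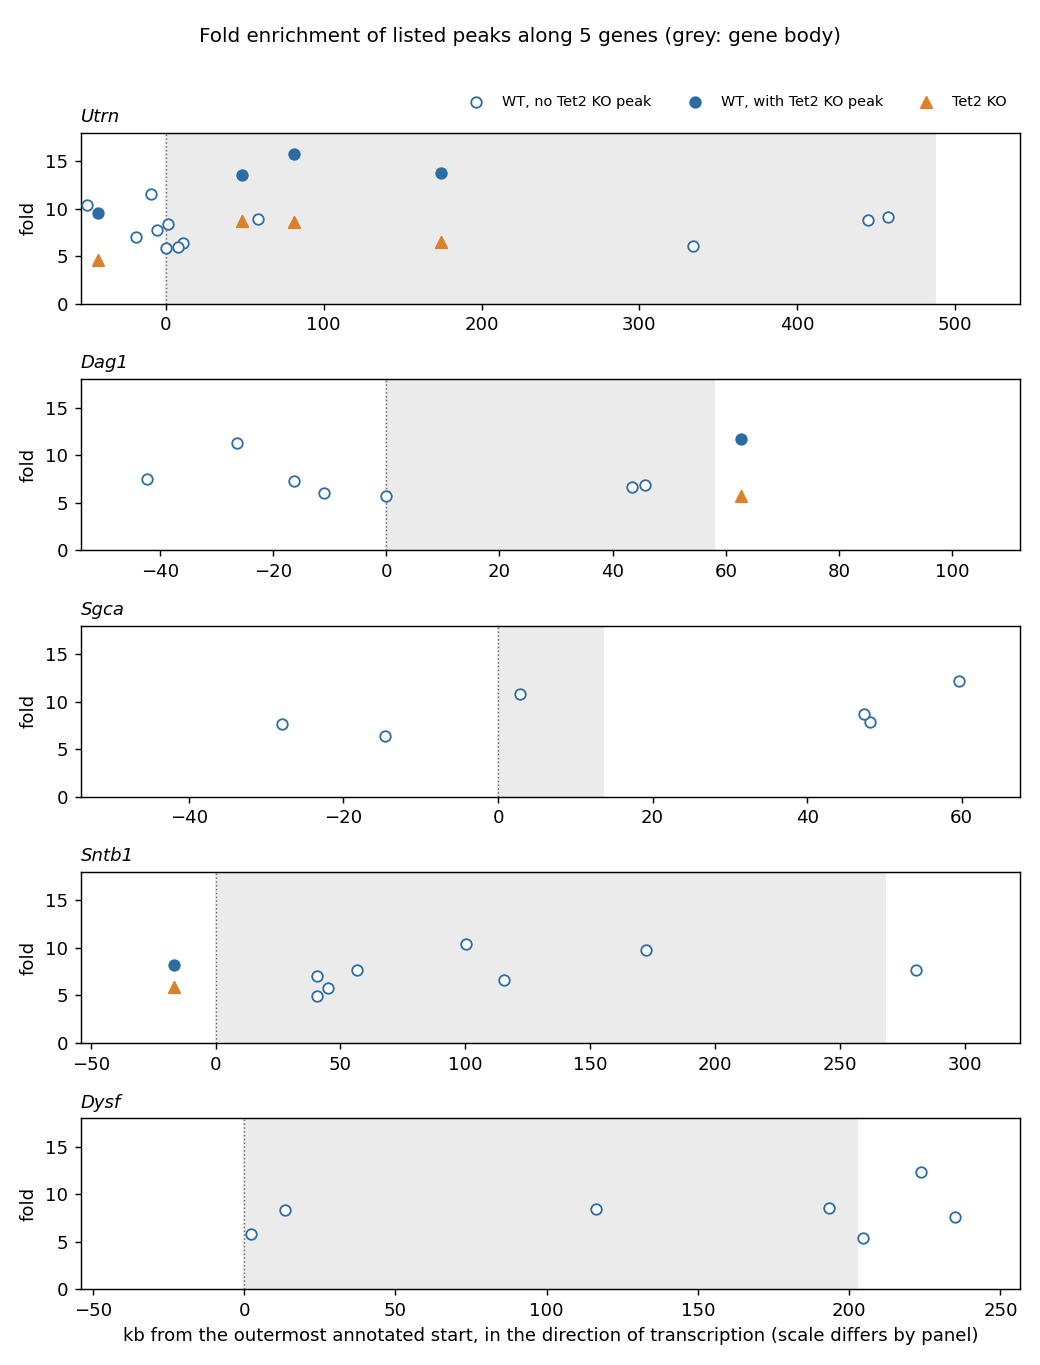
Fold enrichment (y axis, ratio) of each listed peak against its distance in kb from the outermost annotated start of the gene, in the direction of transcription (x axis, scale differs by panel), for the 5 genes with a peak. Open circles are WT peaks without a Tet2 KO peak, filled circles WT peaks with one, triangles Tet2 KO peaks, and grey marks the gene body. All 3 intronic Tet2 KO peaks lie in Utrn, within 174426 bp of its start, and Sgca and Dysf have open circles alone.

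Dag1 encodes dystroglycan, which binds dystrophin inside the cell and laminin outside it. Dag1 (chr9:108108286-108166255, minus strand) is 58.0 kb long, shares its window with 5 other coding genes, and had 50.6 WT peaks per Mb, more than 91.4% of coding genes. Of its 8 WT peaks 2 lay inside the gene, 1 at its promoter and 5 elsewhere in the flanks, of which 2 were at the promoters of Nicn1 (fold 11.3) and of Rhoa and Tcta (fold 7.46). The peaks inside the gene were chr9:108120466-108120689 in exon 3 (fold 6.88) and chr9:108122861-108122963 in intron 2 (fold 6.67), both with 12 fragments. The shared peak, chr9:108103452-108103798, had a fold of 11.7 and 25 fragments (16.2 to 36.9) in WT and 5.68 and 14 fragments (7.65 to 23.5) in Tet2 KO, with the summits at the same base. It lay 62630 bp from the Dag1 start, past the end of the gene, and nearest to the start of Bsn, at -10910 bp.

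Of the sarcoglycans, which form a subcomplex in the membrane, Sgca had WT peaks and Sgcb and Sgcd had none. Sgca (alpha-sarcoglycan, chr11:94824105-94837641, minus strand) is 13.5 kb long and had 52.8 WT peaks per Mb, more than 92.1% of coding genes, but 6 other coding genes share its window. A single peak lay inside the gene, at an internal promoter. In the flanks 3 peaks were nearest to the start of Col1a1, at -19537 bp (fold 12.1), -8060 bp (fold 7.87) and -7273 bp (fold 8.72), and 1 lay at the promoter of Ppp1r9b (fold 6.37). None of the 6 had a Tet2 KO peak. Sgcb (beta-sarcoglycan, chr5:74023988-74038983, minus strand) is 15.0 kb long, and Sgcd (delta-sarcoglycan, chr11:46709755-47802471, minus strand) 1093 kb. At each of them the WT list skips 1 number between the flanking peaks and the Tet2 KO list 5 and 3. In the library of the WT list at most 1 unlisted peak was therefore called at either gene. The nearest listed WT peaks lay 90088 bp and 215505 bp outside the Sgcb window and 409242 bp and 761036 bp outside the Sgcd window.

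Peaks centred in a promoter were found at 2 of the 8 genes in WT, Dag1 and Sgca (3 with promoters of 1000 bp on either side), and at 0 in Tet2 KO. Over all coding genes 30.4% had a WT promoter peak and 7.94% a Tet2 KO promoter peak. The Dag1 peak, chr9:108166312-108166411, was centred at -106 bp from the start and was weak, with a fold of 5.73 and 10 fragments. The Sgca peak, chr11:94834735-94834914, was centred 2817 bp inside the gene, at -21 bp from an internal start, with a fold of 10.8 and 21 fragments. Their sequences are shown on the minus strand of mm9 for the contrast between them. The Dag1 stretch held 10 CpG dinucleotides at a GC content of 70% and no match to the 4 motifs. The Sgca stretch, chr11:94834804-94834914, is the part of the peak outside exons. It was also rich in GC, at 64.9%, but held 1 CpG, with 1 E box and 1 TEAD match, in capitals.
Dag1 promoter: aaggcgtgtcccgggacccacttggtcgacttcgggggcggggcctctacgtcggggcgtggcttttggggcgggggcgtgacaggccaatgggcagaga
Sgca promoter: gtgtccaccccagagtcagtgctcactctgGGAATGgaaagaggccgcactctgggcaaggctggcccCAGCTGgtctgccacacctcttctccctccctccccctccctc

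Sntb1 encodes beta-1-syntrophin, an adaptor that binds dystrophin and utrophin. Sntb1 (chr15:55470398-55738504, minus strand) is 268 kb long and had 24.4 WT peaks per Mb, more than 65.4% of coding genes. Of its 9 WT peaks 7 lay in introns and 2 in the flanks, with folds from 4.89 to 10.4 (median 7.69). The strongest inside the gene were chr15:55637915-55638150 in intron 1 (fold 10.4, 20 fragments), chr15:55566124-55566323 in intron 3 (fold 9.83, 16 fragments) and chr15:55681548-55681824 in intron 1 (fold 7.69, 15 fragments). None of the intronic peaks had a Tet2 KO peak. The peak that did, chr15:55754814-55755233 at -16519 bp from the start, had a lower WT fold than the first and second of these, 8.25 with 15 fragments (8.40 to 24.7), against 5.87 with 13 fragments (6.92 to 22.2) in Tet2 KO. It was among the widest WT peaks at the 8 genes, at 420 bp.

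Dysf encodes dysferlin. Dysf (chr6:83958584-84161054, plus strand) is 202 kb long and had 23.1 WT peaks per Mb, more than 63.9% of coding genes. Its 7 WT peaks, 4 inside the gene and 3 past its end, had folds from 5.42 to 12.4 (median 8.37), and none had a Tet2 KO peak. Inside the gene the strongest were chr6:84151878-84152047 in intron 51 (fold 8.60, 15 fragments), chr6:84074684-84074870 in intron 30 (fold 8.43, 13 fragments) and chr6:83972083-83972340 in intron 1 (fold 8.37, 16 fragments). The strongest of the window, chr6:84182121-84182330, lay past the end of the gene, 21747 bp from its nearest start, with a fold of 12.4, 25 fragments and 3 E boxes. No other WT peak at the 8 genes without a Tet2 KO peak had a fold as high. The strongest intronic peaks of Sntb1 (minus strand) and Dysf (plus strand) are shown, with motifs in capitals, as examples of distal sites that were listed in WT alone, and each holds 1 AP-1 match, beside 1 Runx match in Sntb1.
Sntb1 intron 1: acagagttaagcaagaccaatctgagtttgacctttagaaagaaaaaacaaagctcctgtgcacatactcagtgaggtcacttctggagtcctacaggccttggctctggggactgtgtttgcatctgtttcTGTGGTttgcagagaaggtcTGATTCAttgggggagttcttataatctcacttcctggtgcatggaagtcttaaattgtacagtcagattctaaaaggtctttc
Dysf intron 51: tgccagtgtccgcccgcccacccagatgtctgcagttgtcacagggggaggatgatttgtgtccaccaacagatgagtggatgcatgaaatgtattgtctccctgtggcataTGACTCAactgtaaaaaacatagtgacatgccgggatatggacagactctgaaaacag

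Across the 8 genes, 6 of 46 WT peaks (13.0%, Wilson 95% interval 6.12 to 25.7%) had a Tet2 KO peak, against 14.1% of all WT peaks, so the share lay near the background. Of the 46 peaks 24 were in introns, 15 in intergenic sequence, 5 at promoters and 2 in exons. All 6 shared peaks were in introns (3) or intergenic sequence (3), and 0 of the 5 promoter peaks, those of neighbouring genes included, had a Tet2 KO peak, against 22.5% of all WT promoter peaks, and 5 peaks are too few to set apart from that share. For the 39 intronic and intergenic peaks the share was 15.4% (7.25 to 29.7%), against 11% for all such WT peaks, which lies within the interval. Inside the gene or at its own promoter lay 26 of the 46 (56.5%, 42.2 to 69.8%). Of the 20 in the flanks 11 were nearest to a start of another coding gene, so that their gene is uncertain.

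The shared WT peaks were stronger and wider than the rest. Their median fold was 12.7 against 7.66 for the 40 without a Tet2 KO peak, and their width 347 to 469 bp (median 418) against 100 to 356 bp (median 186). Over all WT peaks the shared ones were also stronger and wider, where the median fold was 10.97 with and 7.57 without a Tet2 KO peak and the median width 337 and 198 bp. With all WT peaks ranked by fold into 5 groups of 5155, a Tet2 KO peak was found for 1.75, 3.34, 7.33, 16.1 and 41.9% from the weakest to the strongest group. At the 8 genes it was found for 0 of 9, 0 of 7, 1 of 12, 1 of 7 and 4 of 11 peaks of these groups.

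**Figure D3:**
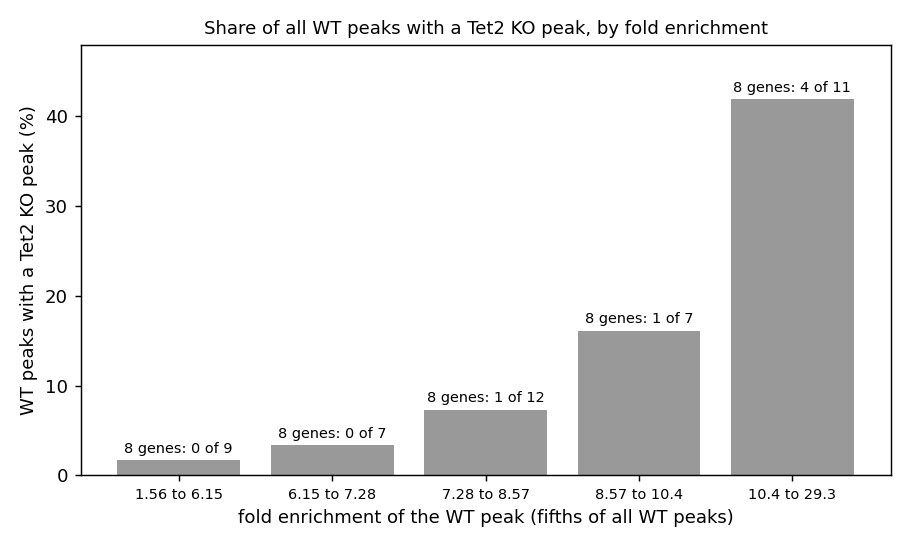
Percent of all WT peaks overlapped by a Tet2 KO peak (y axis) in 5 groups of 5155 peaks by fold enrichment (x axis, range of each group), with the count at the 8 genes above each bar. The share was 1.75% in the weakest and 41.9% in the strongest group, and 4 of the 6 shared peaks at the 8 genes were in the strongest.

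The Tet2 KO list leaves out some of the called peaks, and its skipped numbers limit how many of the 40 WT peaks can have a called but unlisted partner. The 7 unshared Dag1 peaks lay in a stretch of 289.2 kb without a listed Tet2 KO peak in which 1 number is skipped, the 7 Dysf peaks in 703.2 kb with 1 and the 6 Sgca peaks in 830.1 kb with 1. WT peaks within 500 bp of each other were counted as 1, which leaves 39, and each unlisted peak was taken to overlap at most 1 of them. On that assumption at least 6 of the Dag1 peaks, 6 of the Dysf, 5 of the Sgca, 4 of the Sntb1 and 9 of the Utrn peaks had no called Tet2 KO peak. Together this is at least 30 of 39, fewer if an unlisted peak spanned neighbouring WT peaks. Skipped numbers bound the calls of the library named in the list only. The same bound was not computed for WT peaks elsewhere, so it does not set these genes apart. Of all WT peaks 14.1% had a listed Tet2 KO peak.

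The Tet2 KO library had the higher coverage of the pair. Its genome-wide background was 1.38 fragments per position, against 0.649 in WT (2.13 times), and the 6 shared summits had folds of 8.25 to 15.8 in WT and 4.61 to 8.73 in Tet2 KO. Relative to that background they stood at 23.1 to 64.7 times in WT and 7.23 to 16.6 times in Tet2 KO. The Tet2 KO interval lay below the WT interval at 5 of the 6, the Sntb1 peak being the other. This scaled comparison was not made for shared peaks elsewhere, so it does not set these genes apart. Over all listed peaks the median fold was also lower in Tet2 KO, 5.59 against 7.89 in WT. If each of the 40 unshared WT peaks had its WT fold over the Tet2 KO background, it would hold 10.7 to 28.5 fragments. All 40 would pass the smallest -log10 p of the Tet2 KO list, 4.01. That outcome was close to fixed in advance, as the WT list starts at 4.70 over a lower background. The rule by which peaks were listed is also not known, so no conclusion is drawn from it. When the WT list was shortened to its 3836 peaks of highest fold, as many as the Tet2 KO list has, 8 WT peaks remained at the 8 genes, 50% of them with a Tet2 KO peak, and 6 Tet2 KO peaks. What part the length of the lists has in the difference was not tested.

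**Figure D4:**
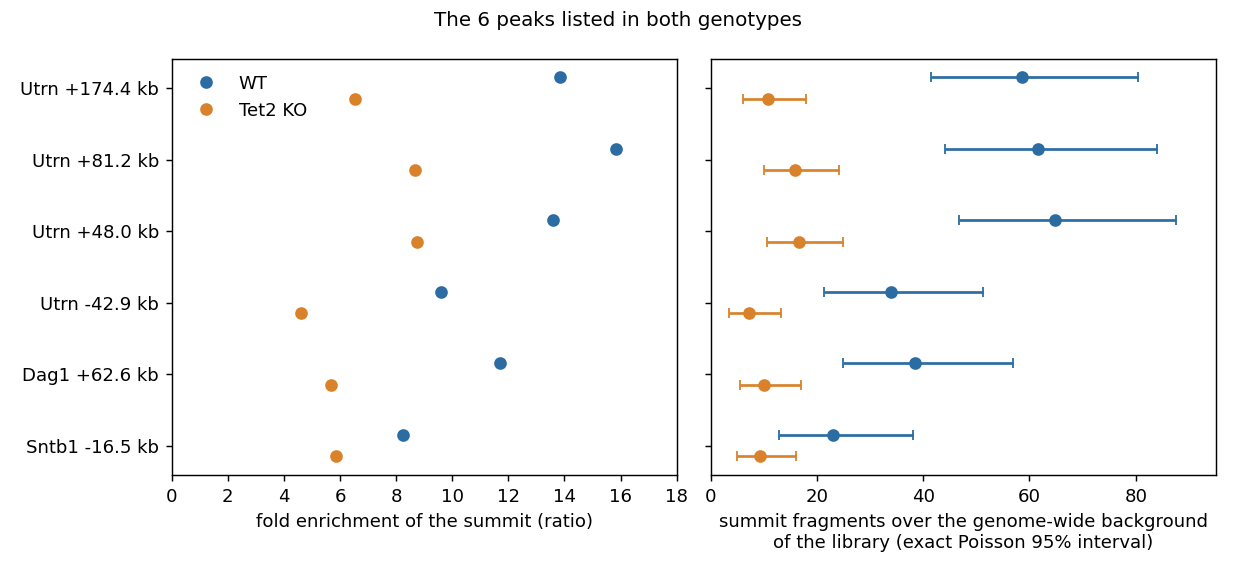
Fold enrichment (left, ratio) and summit fragments divided by the genome-wide background of the library, with exact Poisson 95% intervals for counting error (right, x axis, times the background), of the 6 peaks listed in WT (blue) and Tet2 KO (orange), named by gene and distance in kb from its outermost start. The fold was lower in Tet2 KO at all 6, and the scaled intervals separated at 5 of the 6, all but the Sntb1 peak. Shared peaks elsewhere were not scaled in this way.

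Motifs in the 39 intronic and intergenic peaks were counted beside those of all 17866 such WT peaks. An E box was found in 15 (38.5% against 42.6%), the AP-1 motif in 21 (53.8% against 47.1%), the TEAD motif in 12 (30.8% against 22.4%) and the Runx motif in 10 (25.6% against 33.4%). Median width was 204 bp at the 8 genes and 209 bp overall. Of the 6 shared WT peaks, 3 held an E box, 3 an AP-1, 3 a TEAD and 3 a Runx match. These peaks are wider, with a median of 418 bp, and motifs were not counted over all shared WT peaks. The counts therefore do not set them apart.

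By density the 8 genes fell into separate ranges. All windows together, 5.19 Mb, had 8.86 WT peaks per Mb, against 9.77 per Mb over the autosomes and X. Dmd, Sgcb and Sgcd, with 3.66 Mb of these windows, had no WT peak. The other windows, 1.53 Mb set apart because they hold a peak, had 30.1 WT peaks per Mb. The median coding gene, with genes without a peak included, had 16.0 per Mb (quartiles 0 and 29.8). Utrn, Sntb1 and Dysf lay between 23.1 and 27.2 per Mb, and the gene-dense windows of Dag1 and Sgca above 50.

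**Figure D5:**
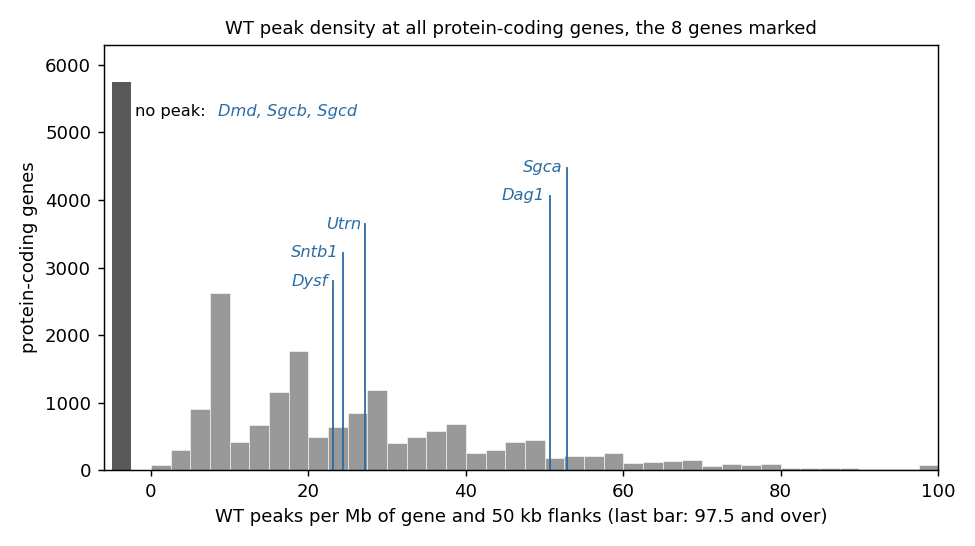
Number of protein-coding genes (y axis) by WT peaks per Mb of gene and 50000 bp on either side (x axis), with genes without a peak as the dark bar. Dysf, Sntb1 and Utrn lie between 23.1 and 27.2 per Mb, Dag1 at 50.6 and Sgca at 52.8, and Dmd, Sgcb and Sgcd are among the genes without a peak.

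A further 30 genes of the complex and of membrane repair were counted in the same way. Of these 28 had a WT peak in their window, 13 a Tet2 KO peak, 12 a WT promoter peak and 3 a Tet2 KO promoter peak. Over all coding genes the shares were 74.3, 31.4, 30.4 and 7.94% in the same order. Of the 126 WT peaks of the 30 genes 21 had a Tet2 KO peak, against 14.1% of all WT peaks. Of 12 other genes of the complex 11 had a WT and 3 a Tet2 KO peak (35 and 6 peaks), and Sgcz, the zeta-sarcoglycan, had none. Of 10 genes of dystroglycan ligands and glycosylation 9 had a WT and 6 a Tet2 KO peak (38 and 6 peaks). Of 8 genes that act in membrane repair with dysferlin all 8 had a WT and 4 a Tet2 KO peak (53 and 10 peaks).

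The promoters with a peak in both lists, at 3 of the 30 genes, belonged to glycosylation and repair genes. Over all coding genes 7.94% had a Tet2 KO promoter peak, so 3 of 30 lay near the background. At Pomgnt1, a glycosyltransferase of dystroglycan, the fold was 12.6 in WT (24 fragments) and 4.11 in Tet2 KO (11 fragments). At Large, which builds the laminin-binding sugar chain, it was 11.7 (34 fragments) and 8.93 (26 fragments), and at Trim72, which nucleates membrane repair, 9.40 (27 fragments) and 5.11 (13 fragments). None of the 12 other complex genes had a Tet2 KO promoter peak, and 12 genes are too few to set apart from that share.

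The cell type of the lists was checked at marker genes. Over all coding genes 74.3% had a WT and 31.4% a Tet2 KO peak in such a window. Promoter peaks were found at 30.4% in WT and 7.94% in Tet2 KO. A peak at a single marker therefore does not mark a cell type by itself. Of 6 myoblast genes 5 had WT peaks in their window and 5 had Tet2 KO peaks, with promoter peaks in both lists at Myod1 (fold 7.53 and 5.50) and Des, and Myf5 had none. None of the 3 fibro-adipogenic genes had a peak of either list. All 3 haematopoietic genes had peaks in their windows, 8 in WT and 4 in Tet2 KO, but none at a promoter. All 3 endothelial genes had peaks, 11 in WT and 2 in Tet2 KO, with a WT promoter peak at Pecam1 (fold 11.5, 22 fragments), although CD31+ cells, which carry its protein, were sorted out. The part of other cells in the peaks at the 8 genes was not tested.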

How the data were processed

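ATAC-seq libraries of 2 WT and 2 Tet2 KO samples were sequenced, and 1 peak list of each genotype was used. Per the study's methods, the authors cut reads to 36 bp, mapped them to mm9 (Bowtie2), required a mapping quality of 30, discarded duplicates (Picard) and ran MACS2 on each sample with a q of 0.01. The smallest -log10 q is 2.18 in the WT list and 0.863 in the Tet2 KO list, so the latter does not meet that limit. A list was given to its genotype by its peak total, which equals the sum of the peak classes the study plots. How peaks were chosen from those called is not given in the sources used here.

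The deposited fold values are a ratio, summit over local background within a library. The authors' other deposited columns used here hold the -log10 p and the -log10 q of the summit from MACS2. Fragments and background were solved from fold and -log10 p with the Poisson model of the peak caller, within 0.001 in -log10 p, for 100% of the peaks of both lists, and on simulated data for 100% of 3000 peaks. The most frequent background of a list, taken as genome-wide, is the depth the lists show, and summit fragments were divided by it to compare libraries, a step added after the data were seen. Peaks that shared at least 1 bp were counted as overlapping. Features were read at the peak centre from GENCODE M1 on NCBIM37, which is mm9, with promoters before exons and introns. Sequences come from the same assembly.

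The 8 genes, the other gene lists, the motifs and the alternatives were chosen with earlier results of these data known. Peaks named were every Tet2 KO peak with its WT partner, WT peaks at a promoter, and the 3 strongest WT peaks inside each gene. The peaks near the Utrn starts, between its intron 1 pair and at -9466 bp, the strongest Dysf peak and the Col1a1-side peaks were named after their values were seen. Of the 30 other genes, those with a Tet2 KO promoter peak or no WT peak are named, apart from 1 that is not reported here. Shares have Wilson and fragment numbers exact Poisson 95% intervals. No test was made, since peaks are not replicates. Alternatives were stricter limits, merged peaks, equal list lengths, other windows, promoters and overlaps, and each gene left out. The work was done in Python 3.11.15 with pysam 0.24.0, scipy 1.17.1, pandas 2.3.3, numpy 2.4.6 and matplotlib 3.10.9.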

Additional observations from a re-analysis of the deposited data

How the results depend on the processing

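Of 88 values under an alternative 73 stayed within 1.5 times the reported count or within the interval of the reported share. When peaks of either list with a -log10 q under 10 were dropped, 25 WT and 2 Tet2 KO peaks remained, and 1 gene, Sgca, had a WT promoter peak. With the WT list as short as the Tet2 KO list, 8 WT peaks remained, 50% of them (21.5 to 78.5%) with a Tet2 KO peak. Of these 37.5% lay inside the gene or its promoter. In this setting 0 genes had a WT promoter peak, and Sntb1 kept 0 WT against 1 Tet2 KO peak. With flanks of 10000 bp there were 30 WT peaks, 86.7% of them inside or at the promoter, and in the genes alone 25 WT and 3 Tet2 KO peaks, where that share is 100% by construction. Promoters of 3000 bp on either side gave 4 genes with a WT promoter peak. Without Utrn 30 WT and 2 Tet2 KO peaks were left, and leaving out any other gene moved no count by over 1.5 times. Leaving out Dmd, Sgcb or Sgcd, which have no peak, could change no value. Of 144 counts at single genes 22 fell and 0 rose by more than 1.5 times. No count could rise, as each of these settings only narrows or merges the main one. Those at Dmd, Sgcb and Sgcd were 0 throughout and could not move. Counting only peaks inside the gene or nearest to its starts, chosen after seeing the data, moved Dag1 to 4 WT and 0 Tet2 KO peaks and Sgca to 1 WT peak.

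No paired analysis was possible because the single list of a genotype bears no replicate number. With 1 list each, a difference between genotypes and one between libraries cannot be told apart. Peaks below the listing limit were not seen, so a gene without a peak is not shown to be closed.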
